A study of Mus musculus with 6 samples.

Results

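Collagen chain genes were described on 6 arrays of mouse skeletal muscle. A gene was taken as a collagen chain gene when its platform symbol was Col, a number, the letter a and a number, as in Col1a1, and a gene with several probe sets was represented by the one with the highest mean over all arrays. The rule found 44 of the 19938 genes tested, from 46 probe sets that each carried a single symbol. The series is titled for SOCS-3, a suppressor of cytokine signalling, in muscle, and compared 3 mice labelled transgenic (TG) with 3 labelled wild type (WT). Each array carries its own subject label, so an array stands for 1 mouse. The labels give neither the transgene, its promoter, the muscle taken, the strain, the sex nor the age, so nothing is known here of which cells carried the transgene or of what the groups shared beyond the tissue. The values are log2 expression as the authors deposited them, and all differences below are TG minus WT on that scale.

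Collagens are secreted or membrane proteins in which chains with repeated glycine wind around each other into a triple helix. In muscle, types I, III and V build the fibrils of the connective tissue that wraps fibres and fascicles, type IV forms the network of the basement membrane around every fibre and capillary, and type VI links that network to the fibrils. Fibroblasts and other interstitial cells make most of the fibrillar chains, while types II, IX, X and XI are best known from cartilage. In a piece of whole tissue, fewer cells of a type and less RNA per cell cannot be told apart.

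Promoter sequences were held for 35 of the 44 genes in the RefSeq table (assembly GRCm38.p6), and 6 are shown. They include those of the 4 genes of types I, III and V with an entry, called the fibrillar class here. The differences of these 4 genes all lay above 0. The other 2 promoters are those of the 2 members with the smallest unadjusted p, Col8a2 and Col23a1. Each is the stretch of 150 bases before the annotated start, 5′ to 3′ on the gene's strand, and capitals mark 3 motifs. These are the CCAAT box, read as CCAAT with its other strand reading ATTGG, the TATA box, read as TATAAA with its other strand reading TTTATA, and the GC box, read as GGGCGG with its other strand reading CCGCCC.
Col1a2, chr6:4505468-4505617, plus strand: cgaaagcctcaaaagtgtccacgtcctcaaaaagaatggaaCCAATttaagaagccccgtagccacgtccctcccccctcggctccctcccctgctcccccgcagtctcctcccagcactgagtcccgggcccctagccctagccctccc
Col3a1, chr1:45311388-45311537, plus strand: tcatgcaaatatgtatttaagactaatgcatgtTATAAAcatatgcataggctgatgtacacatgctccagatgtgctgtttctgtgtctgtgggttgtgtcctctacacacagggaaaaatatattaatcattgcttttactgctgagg
Col5a1, chr2:27886275-27886424, plus strand: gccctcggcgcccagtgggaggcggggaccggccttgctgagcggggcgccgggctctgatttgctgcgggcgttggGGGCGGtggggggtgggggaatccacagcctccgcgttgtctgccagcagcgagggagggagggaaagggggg
Col5a3, chr9:20815068-20815217, minus strand: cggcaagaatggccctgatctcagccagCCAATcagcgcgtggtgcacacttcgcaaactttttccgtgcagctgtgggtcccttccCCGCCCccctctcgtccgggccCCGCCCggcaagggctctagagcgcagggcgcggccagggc
Col8a2, chr4:126286644-126286793, plus strand: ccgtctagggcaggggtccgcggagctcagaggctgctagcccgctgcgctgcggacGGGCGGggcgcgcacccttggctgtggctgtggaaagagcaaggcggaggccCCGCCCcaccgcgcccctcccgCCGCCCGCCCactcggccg
Col23a1, chr11:51289770-51289919, plus strand: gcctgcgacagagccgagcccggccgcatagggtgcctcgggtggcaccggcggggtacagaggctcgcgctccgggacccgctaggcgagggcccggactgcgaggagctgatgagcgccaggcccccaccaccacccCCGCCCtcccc

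No motif was shared by all 4 of these fibrillar promoters. CCAAT stood 109 bases before the start of Col1a2 and 122 bases before that of Col5a3, TATAAA stood 117 bases before that of Col3a1, and Col5a1 held a single GGGCGG. Col8a2 held 4 GC boxes, the last 2 of them overlapping, and Col23a1 held 1. Among the 38 collagen promoter entries, in windows of this length and on both strands, the GC box was found in 19 (50%, against 28.6% of all 32851 promoter entries), the CCAAT box in 8 (21.1% against 24.5%) and the TATA box in 4 (10.5% against 7.57%). A match is a run of letters and not a shown binding site.

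None of the 44 collagen genes passed the threshold of an adjusted p under 0.05 over all genes (limma, a linear model per gene whose variance estimate borrows from all genes, with Benjamini-Hochberg adjustment), and 1 gene did among all those tested (0.00502%). The smallest adjusted p of a collagen gene was 0.710. Before adjustment 4 collagen genes had a p under 0.05, Col23a1, Col8a2, Col26a1 and Col6a5, all with lower values in TG (9.09%, against 4.79% of all genes with lower values), and 0 had higher values (against 1.96% of all genes), so 6.75% of all genes stood past that level in either direction. Differences ran from -0.26 for Col8a2 to 0.30 for Col12a1. The members divided almost evenly, 21 above 0 and 23 below 0, with a median of -0.02, and the median over all genes was -0.02 with 43.8% of genes above 0 and 56.2% below. That division depended on the scaling of the arrays: with arrays set to a common median it was 25 above and 19 below, and the genes with an unadjusted p under 0.05 were then Col3a1, Col5a2 and Col24a1 on the higher side and Col8a2 and Col23a1 on the lower, 5 of 44 members against 6.71% of all genes in either direction.

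**Figure D1:**
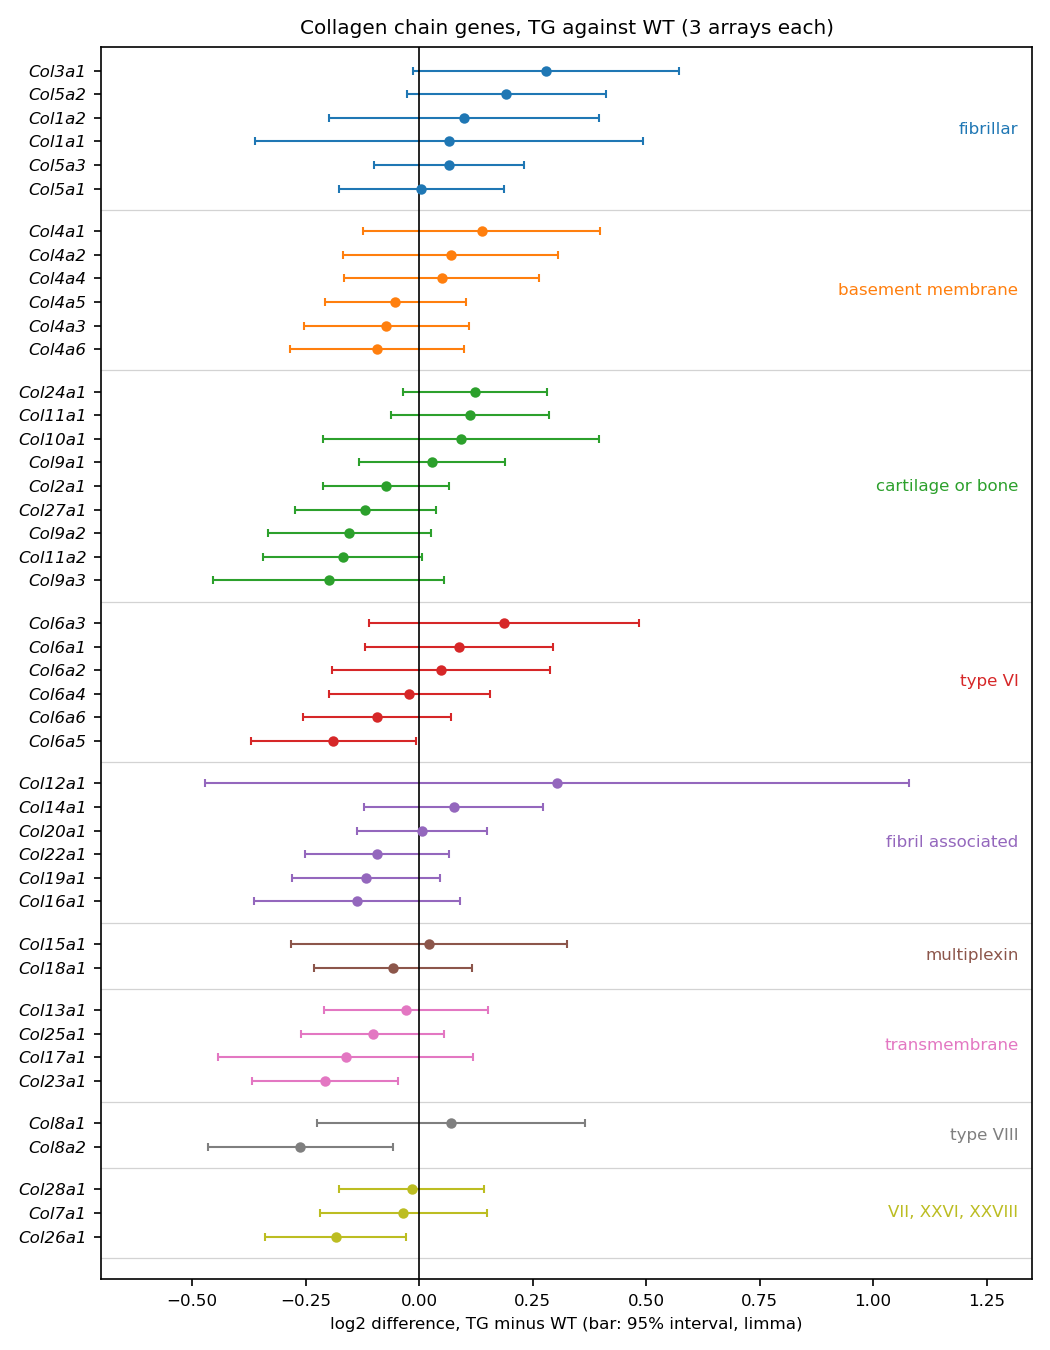
Log2 difference, TG minus WT, for each of the 44 collagen genes, grouped by class, with its 95% interval from limma (3 arrays per group). All 6 genes of the fibrillar class (types I, III and V) lie above 0 and the 4 transmembrane genes below it. Before adjustment 4 intervals exclude 0, those of Col23a1, Col8a2, Col26a1 and Col6a5.

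The fibrillar chains of soft connective tissue had differences above 0 in 6 of 6 genes, with a median of 0.08, and none passed. This class held types I, III and V only. Fibril-forming chains of cartilage or bone were counted in the cartilage or bone class. Of those, Col2a1, Col11a2 and Col27a1 lay below 0, and Col11a1 and Col24a1 above. Col1a1 and Col1a2 encode the chains of type I collagen, the main collagen of muscle connective tissue. Col1a1 was at 11.73, 11.52 and 11.06 on TG arrays 1, 2 and 3 and at 11.26, 11.63 and 11.23 on WT arrays 1, 2 and 3. Col1a2 was at 11.31, 11.08 and 10.93 in TG and at 10.93, 11.22 and 10.88 in WT. In both genes TG array 1 was highest and WT array 2 came next, so the groups were interleaved. The differences, 0.07 (SE 0.18) for Col1a1 and 0.10 (SE 0.13) for Col1a2, were smaller than the SDs of 0.34 and 0.19 among the TG arrays.

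Col3a1, which encodes the chain of type III collagen in fine reticular fibrils, had the largest difference of the class. It was at 10.89, 10.79 and 10.42 on the TG arrays and at 10.33, 10.45 and 10.49 on the WT arrays. TG arrays 1 and 2 lay above every WT array and TG array 3 lay among them. The group means were 10.70 ± 0.25 for TG and 10.42 ± 0.08 for WT (SD over 3 arrays). The difference was 0.28 (SE 0.13, 95% interval -0.01 to 0.57; limma, adjusted p = 0.740), equal to 1.21-fold. Without TG array 3 the difference was 0.42 (adjusted p = 0.464), and without TG array 1 it was 0.19 (adjusted p = 0.916).

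Type V chains help start and limit fibril growth. Col5a2 was at 7.96, 7.95 and 7.67 in TG and at 7.72, 7.65 and 7.63 in WT, again with TG arrays 1 and 2 above all WT arrays and TG array 3 among them. Its difference was 0.19 (SE 0.09; limma, adjusted p = 0.758). Col5a1 was at 7.98, 7.99 and 7.82 in TG and at 7.89, 7.87 and 8.01 in WT, a difference of 0.01 (SE 0.08) that became -0.01 with quantile normalization. For Col5a3 the TG arrays lay between 7.66 and 7.78 and the WT arrays between 7.59 and 7.72. The 95% intervals were -0.18 to 0.19 for Col5a1 and -0.10 to 0.23 for Col5a3, and both include 0. On the chromosome, Col3a1 and Col5a2 are neighbouring protein-coding genes in the RefSeq table.

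**Figure D2:**
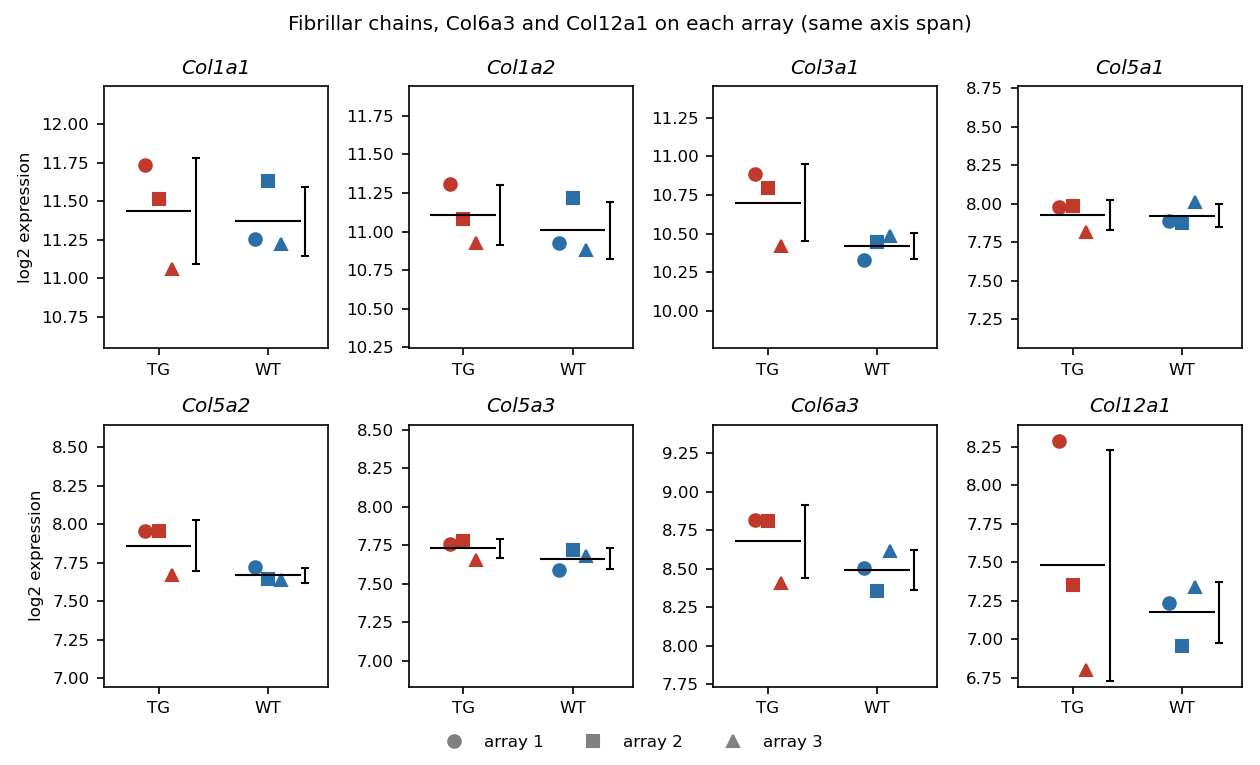
Log2 expression of the 6 fibrillar genes, Col6a3 and Col12a1 on each of the 3 TG and 3 WT arrays; horizontal lines are group means, bars are the SD, and every panel spans the same number of log2 units. TG array 3 is the lowest TG array in all 8 panels, and Col12a1 reaches 8.28 on TG array 1 with all other arrays at or below 7.35.

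Basement membrane collagen, type IV, had 3 of 6 genes above 0, a median of -0.0012 and no gene with an unadjusted p under 0.05. Col4a1 and Col4a2, the chains of the form found in basement membranes of nearly all tissues, lie next to each other on chromosome 8. Col4a1 was at 9.01, 9.07 and 8.70 in TG and at 8.67, 8.80 and 8.89 in WT. Col4a2 was at 8.80, 8.92 and 8.68 in TG and at 8.57, 8.74 and 8.88 in WT. The arrays overlapped in both genes, with TG array 2 highest and WT array 1 lowest. Their differences were 0.14 (SE 0.11, 95% interval -0.12 to 0.40) and 0.07 (SE 0.10, -0.17 to 0.31). The chains known best from kidney and other specialised membranes, Col4a3, Col4a4, Col4a5 and Col4a6, differed by -0.07, 0.05, -0.05 and -0.09, each with an SE of 0.07 to 0.09. Col15a1 and Col18a1 encode the multiplexins of the basement membrane zone. Col15a1 was at 8.06, 7.91 and 7.89 in TG and at 7.87, 7.70 and 8.21 in WT, and Col18a1 was at 7.12, 7.10 and 6.94 in TG and at 7.12, 7.07 and 7.15 in WT. WT array 3 was the highest array in both, and their differences were 0.02 (SE 0.13) and -0.06 (SE 0.07).

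In the cartilage or bone class 4 of 9 genes lay above 0, the median was -0.07, and 4 of its genes had groups that did not overlap. Among all genes, 7.76% had every TG array below every WT array and 4.52% had every TG array above. Col2a1, the chain of the main cartilage collagen, was at 7.39, 7.37 and 7.37 in TG and at 7.46, 7.45 and 7.44 in WT. The groups were apart by a small gap, and the difference was -0.07 (SE 0.06; limma, adjusted p = 0.829). Col11a2, which belongs to cartilage fibrils with type II, was at 7.00, 7.02 and 7.00 in TG and at 7.05, 7.22 and 7.25 in WT, a difference of -0.17 (SE 0.07; limma, adjusted p = 0.740). Col27a1, a fibrillar chain of cartilage, was at 7.09, 7.19 and 7.21 in TG and at 7.26, 7.28 and 7.32 in WT, a difference of -0.12 (SE 0.07). These 3 genes had every TG array below every WT array, while Col24a1, a fibrillar chain described in developing bone, had the reverse order. Col24a1 was at 6.67, 6.68 and 6.79 in TG and at 6.62, 6.54 and 6.61 in WT, a difference of 0.12 (SE 0.07; limma, adjusted p = 0.791).

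Other chains of this class had overlapping arrays. Col10a1, the marker of hypertrophic cartilage, was at 5.16, 5.33 and 5.31 in TG and at 4.89, 5.25 and 5.39 in WT, a difference of 0.09 (SE 0.13). Col11a1 was at 6.69, 6.65 and 6.50 in TG and at 6.49, 6.55 and 6.47 in WT, a difference of 0.11 (SE 0.07) opposite in sign to that of Col11a2. Col9a1, a chain of the type IX collagen on the surface of cartilage fibrils, was at 7.06, 6.98 and 7.06 in TG and at 7.02, 7.06 and 6.92 in WT. The type IX genes differed among themselves, with Col9a1 at 0.03 (SE 0.07), Col9a2 at -0.15 (SE 0.08) and Col9a3 at -0.20 (SE 0.11). Of 9 measured cartilage markers outside the collagens 2 lay above 0 (median -0.13), with Ucma at -0.23, Epyc at -0.29, Cnmd at -0.19 and Sox9, the cartilage transcription factor gene, at 0.10. Epyc had log2 levels of only 3.88 to 4.53 on the arrays. The summed log2 level of the cartilage marker list was 46.9 to 47.7 on the TG arrays and 47.4 to 48.8 on the WT arrays. The part of cartilage RNA in the collagen values was not tested.

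Over all classes, every TG array lay below every WT array for 8 collagen genes (18.2%, against 7.76% of all genes) and above for 1 (2.27%, against 4.52%). The 8 genes were Col2a1, Col6a5, Col8a2, Col11a2, Col23a1, Col25a1, Col26a1 and Col27a1. With arrays set to a common median 5 remained below, namely Col8a2, Col11a2, Col23a1, Col26a1 and Col27a1, and 4.38% of all genes did. None of the 8 is a type I, III, V or IV chain. The medians over all genes lay in the same direction, at 6.39, 6.41 and 6.42 on the TG arrays and 6.43, 6.43 and 6.48 on the WT arrays, and WT array 3, with the highest median, was the highest array for 16 of the 44 members. How many of all genes were highest on that array was not counted.

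**Figure D3:**
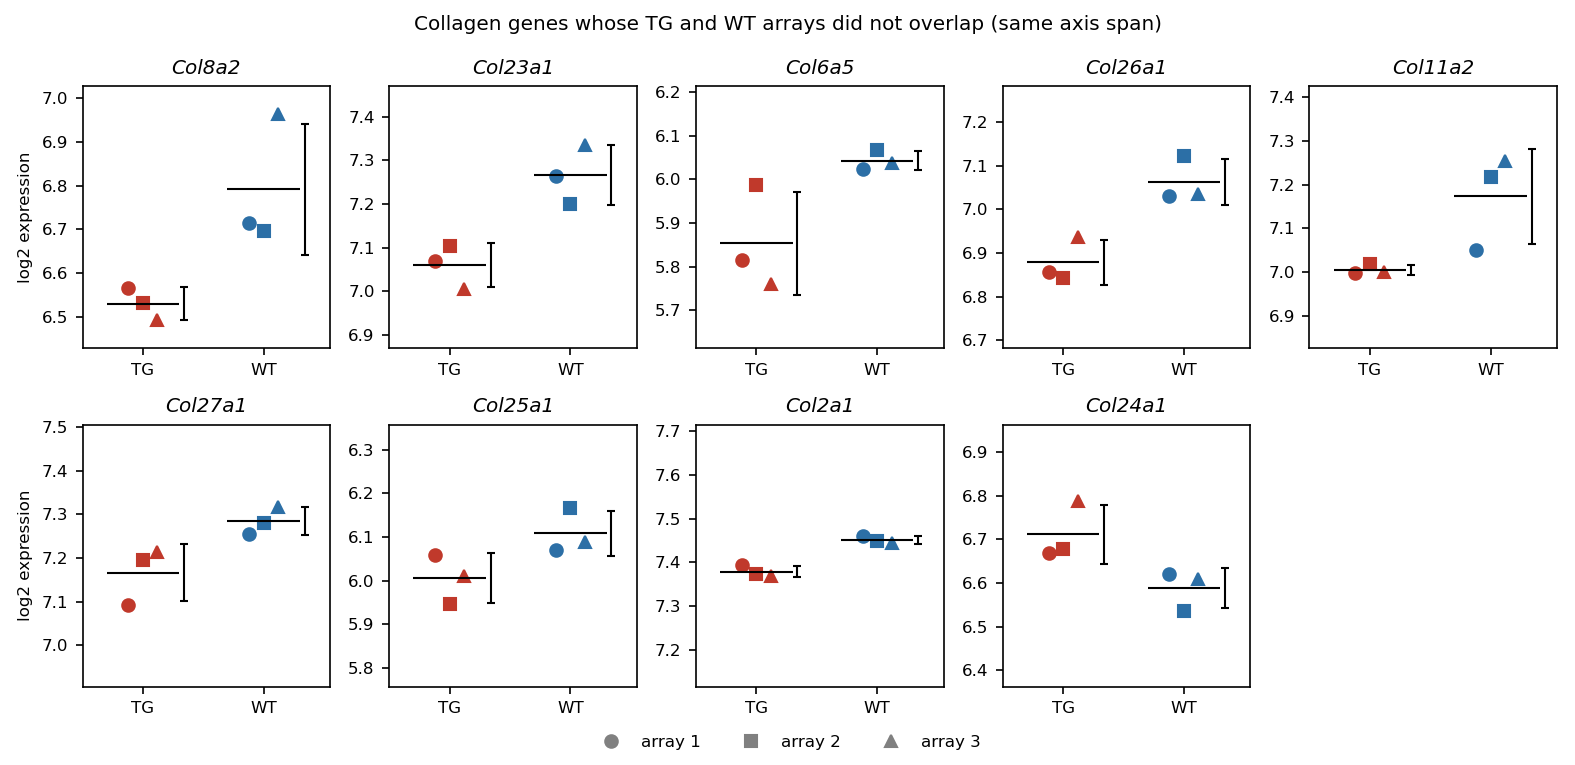
Log2 expression on each array for the 9 collagen genes whose TG and WT arrays did not overlap, ordered by difference; lines are group means, bars are the SD (n = 3 each), and panels span the same number of log2 units. TG lies below WT for 8 genes, from Col8a2 at -0.26 to Col2a1 at -0.07, and above for Col24a1 at 0.12.

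The members with the smallest unadjusted p lay outside the principal muscle collagens. Col23a1, a transmembrane collagen, was at 7.07, 7.10 and 7.01 in TG and at 7.27, 7.20 and 7.34 in WT, a difference of -0.21 (SE 0.07, 95% interval -0.37 to -0.05; limma, adjusted p = 0.710) that equals 1.15-fold. Col8a2, a chain of the short network collagen of type VIII, was at 6.57, 6.53 and 6.49 in TG and at 6.71, 6.70 and 6.96 in WT, a difference of -0.26 (SE 0.09; limma, adjusted p = 0.710) that equals 1.20-fold. Both kept every TG array below every WT array under quantile normalization and with arrays set to a common median. Col8a1, the partner chain of Col8a2, ranged from 6.81 to 7.09 in TG and from 6.77 to 7.16 in WT, a difference of 0.07 (SE 0.13). Col26a1 was at 6.86, 6.84 and 6.94 in TG and at 7.03, 7.12 and 7.03 in WT, a difference of -0.18 (SE 0.07; limma, adjusted p = 0.719).

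All 4 transmembrane collagens had differences below 0, with a median of -0.13. Besides Col23a1, Col25a1, which is expressed in muscle and is needed for motor axons to enter it, was at 6.06, 5.95 and 6.01 in TG and at 6.07, 6.17 and 6.09 in WT, a difference of -0.10 (SE 0.07; limma, adjusted p = 0.802). Col13a1, a collagen of the neuromuscular junction, differed by -0.03 (SE 0.08), and with arrays set to a common median by 0.01. Col17a1, the hemidesmosome collagen of skin, differed by -0.16 (SE 0.12) and had its highest value, 6.41, on WT array 3. Skin markers taken as a list were also highest on that array, with a summed log2 level of 49.1 there, 45.2 to 46.1 on the TG arrays and 45.1 at the lowest in WT. Of these markers 1 of 8 lay above 0, with Krt5 at -0.31, Trp63 at -0.22, Krt15 at -0.15 and Lor at -0.13, and their part in the Col17a1 value was not tested. The skin marker above 0 was highest on TG array 3. Col7a1, the anchoring fibril collagen of skin, and Col28a1 differed by -0.03 (SE 0.08) and -0.02 (SE 0.07).

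Type VI collagen, whose chains are mutated in several congenital muscular dystrophies, had its principal genes above 0 and the later-described genes below. Col6a1 was at 8.95, 8.84 and 8.66 in TG and at 8.74, 8.67 and 8.77 in WT. Col6a2 was at 8.72, 8.66 and 8.40 in TG and at 8.45, 8.54 and 8.65 in WT. Col6a3 was at 8.81, 8.81 and 8.41 in TG and at 8.50, 8.35 and 8.61 in WT. In all 3 genes TG arrays 1 and 2 lay above every WT array and TG array 3 did not, and the differences were 0.09 (SE 0.09), 0.05 (SE 0.10) and 0.19 (SE 0.13). Col6a4, Col6a5 and Col6a6, which lie in a row on chromosome 9, differed by -0.02, -0.19 and -0.09. Col6a5 was at 5.81, 5.99 and 5.76 in TG and at 6.02, 6.07 and 6.04 in WT (difference -0.19, SE 0.08; limma, adjusted p = 0.738). Its second probe set differed by -0.01 (SE 0.10), and the second probe set of Col6a6 by 0.05, opposite to the -0.09 of the first.

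Fibril-associated collagens sit on the surface of fibrils and had 3 of 6 measured genes above 0. Col12a1, the chain of type XII on tendon and muscle fibrils, varied more between arrays than any other member, over 1.48 log2 units. It was at 8.28, 7.35 and 6.80 in TG and at 7.23, 6.95 and 7.34 in WT, so the TG arrays held both the highest and the lowest value. The difference, 0.30 (SE 0.33, 95% interval -0.47 to 1.08; limma, adjusted p = 0.876), changed to -0.10 without TG array 1 and to 0.64 without TG array 3. Col14a1, of type XIV, was at 7.53, 7.59 and 7.42 in TG and at 7.56, 7.39 and 7.35 in WT, a difference of 0.08 (SE 0.08). Col22a1, a collagen of the myotendinous junction, was at 7.27, 7.21 and 7.31 in TG and at 7.30, 7.42 and 7.35 in WT, a difference of -0.09 (SE 0.07, 95% interval -0.25 to 0.06). Col16a1, Col19a1 and Col20a1 differed by -0.14, -0.12 and 0.01.

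The 3 classes of the comparison were set side by side through a mean per array, taken over a class after subtracting each gene's mean over the 6 arrays. For the fibrillar class this was 0.20, 0.12 and -0.14 on TG arrays 1, 2 and 3 and -0.12, 0.02 and -0.08 on WT arrays 1, 2 and 3. For basement membrane genes it was -0.0013, 0.011 and 0.0002 in TG and -0.074, 0.010 and 0.054 in WT. For cartilage or bone genes it was -0.060, -0.0028 and 0.0033 in TG and -0.051, 0.055 and 0.055 in WT. The fibrillar class thus had the widest spread, with its 2 highest arrays and its lowest array all in TG. The group differences were 0.12 for fibrillar genes, 0.0067 for basement membrane genes and -0.039 for cartilage or bone genes, and with arrays set to a common median they were 0.16, 0.047 and 0.00045. The fibrillar mean minus the cartilage or bone mean was 0.26, 0.12 and -0.15 in TG and -0.066, -0.034 and -0.14 in WT. TG arrays 1 and 2 exceeded every WT array in that contrast and TG array 3 was below them all, so the groups overlapped. These class values have no test.

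TG arrays 1 and 3 moved the fibrillar values in opposite ways. Without TG array 1 the fibrillar class difference was 0.046, with 3 of 6 genes above 0. Without TG array 3 it was 0.22, and Col3a1, Col4a1, Col5a2, Col6a3 and Col12a1 then had an unadjusted p under 0.05 on the higher side (differences 0.42, 0.25, 0.29, 0.32 and 0.64) with Col9a3 and Col26a1 on the lower side. These are 7 of 44 members, and 7.85% of all genes stood past that level in either direction in the same comparison. None of the 44 passed over all genes in that comparison of 2 TG with 3 WT arrays either (limma, smallest adjusted p = 0.464).

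**Figure D4:**
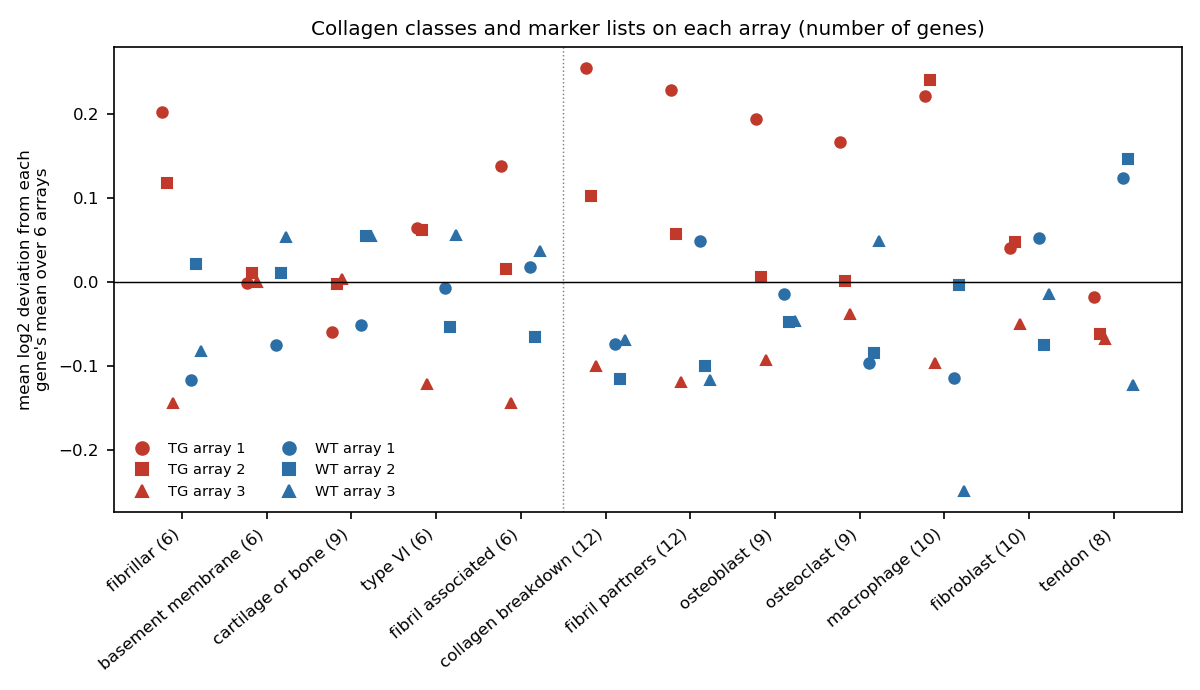
Mean log2 deviation from each gene's mean over the 6 arrays, for 5 collagen classes (left of the dotted line) and for lists of matrix genes and cell type markers (right), with the number of genes in brackets; each point is 1 array. The fibrillar class runs from -0.14 on TG array 3 to 0.20 on TG array 1, and the collagen breakdown, fibril partner, osteoblast and osteoclast lists are also highest on TG array 1.

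Chains that assemble into one collagen type were compared across the 6 arrays in 13 pairs. Col1a1 and Col1a2 had a Pearson r of 0.943 (exact permutation p = 0.00833, adjusted over the pairs 0.0542) and a Spearman rho of 0.829 (exact p = 0.0583, adjusted 0.152). Without the 2 arrays farthest from the median of Col1a1, TG arrays 1 and 3, r was 0.990. Col6a1 and Col6a3 had an r of 0.941 (exact permutation p = 0.00694, adjusted 0.0542) and a rho of 0.943 (exact p = 0.0167, adjusted 0.0722), with an r of 0.996 without those 2 arrays. Col4a1 and Col4a2 had an r of 0.891 (exact permutation p = 0.0278, adjusted 0.108), a rho of 0.943 (exact p = 0.0167, adjusted 0.0722) and an r of 0.746 without the 2 farthest arrays. No pair passed after adjustment, and 4 had an unadjusted exact p under 0.05 for r. The fourth was Col6a1 and Col6a2, with an r of 0.858 (exact permutation p = 0.0333, adjusted 0.108), a rho of 0.943 (exact p = 0.0167, adjusted 0.0722) and an r of 0.678 without the 2 farthest arrays.

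Among the 4 pairs of cartilage chains, 3 had an r below 0. Outside them the pair with an r below 0 was Col4a5 and Col4a6, at -0.126 (exact permutation p = 0.8125, adjusted 0.8125). For Col9a1 and Col9a2 r was -0.560 (exact permutation p = 0.225, adjusted 0.418; rho -0.429, exact p = 0.419, adjusted 0.682), and it was -0.025 without the 2 farthest arrays. For Col11a1 and Col11a2 r was -0.514 (exact permutation p = 0.261, adjusted 0.424; rho -0.714, exact p = 0.136, adjusted 0.253), and it was 0.042 without the 2 farthest arrays. Col9a2 and Col9a3 had an r of 0.786 (exact permutation p = 0.0681, adjusted 0.147) and a rho of 0.714 (exact p = 0.136, adjusted 0.253), and r was 0.478 without the 2 farthest arrays. Of the 13 pairs 9 had an r above 0, and 10 did after each group's mean was subtracted. In those deviations Col1a1 and Col1a2 had an r of 0.955 and Col4a1 and Col4a2 one of 0.891. Col11a1 and Col11a2 then had an r of 0.052 and Col4a5 and Col4a6 one of -0.549. All pairs share the same 6 arrays, and no raw probe data were used here to measure array quality.

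**Figure D5:**
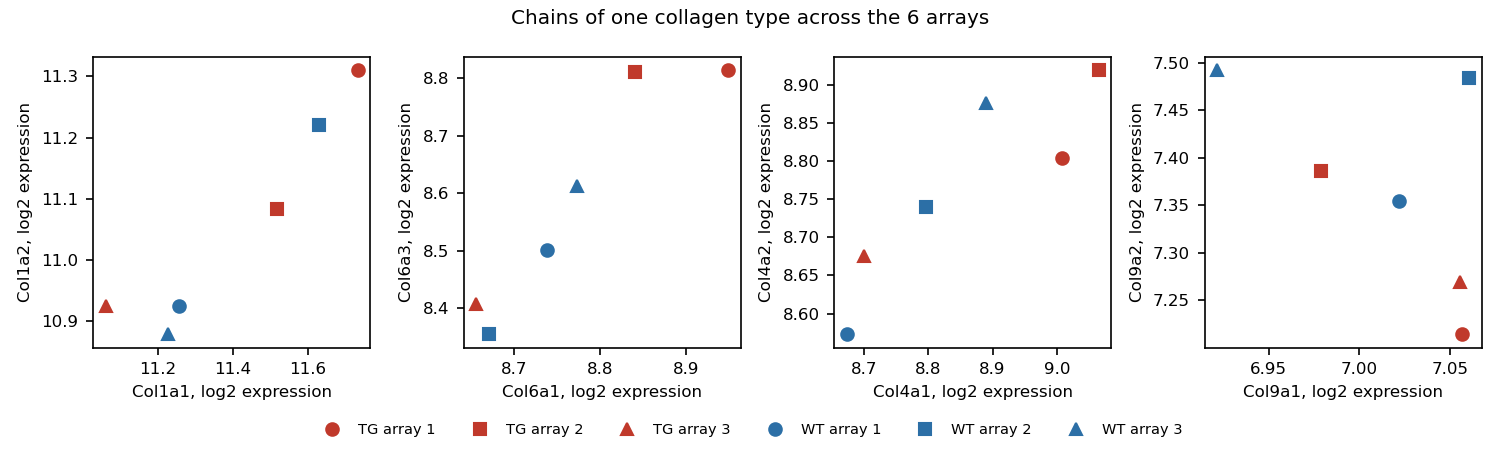
Log2 expression of the chains of types I, VI, IV and IX against each other, 1 point per array and both axes in log2 units. The first 3 panels run upward, with Col1a1 and Col1a2 at r = 0.943, while Col9a1 and Col9a2 run at r = -0.560.

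Of the genes that make, finish and bind collagen, none passed over all genes. Among enzymes and chaperones of collagen folding 8 of 17 measured genes lay above 0 (median -0.0087), with the lysyl hydroxylase gene Plod2 at 0.26 (SE 0.12), Plod1 at 0.11, P4ha3, a prolyl hydroxylase gene, at -0.18 and the glycosyltransferase gene Colgalt2 at -0.14. Processing and crosslinking enzymes had 6 of 10 above 0 and a median of 0.018, with the lysyl oxidase family genes Loxl4 at -0.22 and Lox at 0.10, and the procollagen proteinase genes Tll1 at -0.16 and Adamts14 at -0.07. Proteins bound to fibrils had 9 of 12 above 0 and a median of 0.069, with Lum at 0.43 (SE 0.20), Postn, the periostin gene, at 0.52 (SE 0.39), Thbs2 at 0.24 and Fmod at -0.18. Basement membrane partners had 9 of 11 above 0 and a median of 0.045, with the laminin genes Lamc1 at 0.14 and Lama5 at 0.07, the nidogen gene Nid2 at 0.14 and Agrn, the agrin gene, at -0.09.

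Collagen receptors had 5 of 9 measured genes above 0. Itga1, a collagen-binding integrin gene, and Ddr1, a collagen-activated kinase gene, had every TG array below every WT array, at -0.21 (SE 0.07; limma, adjusted p = 0.710) and -0.19 (SE 0.07; adjusted p = 0.713). Over all genes that order held for 7.76% and the reverse for 4.52%. Ddr2, the receptor kinase of fibrillar collagen in mesenchymal cells, was at 0.19 and Itga2 at -0.15. Genes of collagen breakdown had 10 of 12 above 0 and a median of 0.13. Ctsk, the collagen-degrading cathepsin of osteoclasts, was at 0.57 (SE 0.18), Mmp2 at 0.22 (SE 0.09), Mmp9 at 0.25 and the collagenase gene Mmp1a at -0.30, with log2 levels of only 3.17 to 3.64 on the arrays. Ctsk and Mmp2 had every TG array above every WT array, and Mmp1a had the reverse order. Another collagenase gene, Mmp13, named after its values were seen, had the largest difference of the list, 0.78 (SE 0.54; limma, adjusted p = 0.805). It was at 8.58, 6.99 and 6.38 in TG and at 6.97, 5.89 and 6.74 in WT, so the groups overlapped and TG array 1 stood highest. Ctsk and Mmp9 are also in the osteoclast list given further on. The TGF-beta axis, which induces fibrillar collagen in fibroblasts, had 5 of 11 above 0 and a median of -0.020, with Tgfb2 at 0.20, Tgfb1 at -0.09, Tgfb3 at -0.11 and Smad7 at -0.13.

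Some markers of bone were highest on TG array 1, where the fibrillar mean was highest too. These were 4 of 9 measured osteoblast genes (Ibsp, Phex, Sp7 and Alpl) and 3 of 9 osteoclast genes (Ctsk, Acp5 and Mmp9). The other genes of both lists were highest on WT arrays or on TG array 3. The share of all genes highest on TG array 1 was not counted. Sp7 had a difference below 0, at -0.05. None of these marker genes passed over all genes. The osteoblast list, 5 of 9 measured genes above 0, had a summed log2 level of 45.4 to 48.0 on the TG arrays and 45.8 to 46.1 on the WT arrays. Ibsp, a bone matrix gene, was at 7.35, 6.74 and 5.82 on TG arrays 1, 2 and 3, and at 6.20, 5.66 and 6.01 on WT arrays 1, 2 and 3. Its order matched that of Col12a1, Col1a1 and Col3a1 in TG but matched none of them in WT. There Ibsp was lowest on the array with the highest Col1a1 and highest on the array with the lowest Col3a1. Ibsp and Col12a1 were both lowest on WT array 2, but Ibsp was highest on WT array 1 and Col12a1 on WT array 3. Each of these orders rests on only 3 arrays and was not tested. The other leading osteoblast genes were Mepe at -0.22, Ifitm5 at -0.21 and Phex at 0.15. Log2 levels were only 3.24 to 3.55 for Mepe and 3.26 to 3.67 for Phex on the arrays. The osteoclast list, 3 of 9 above 0, summed to 52.4 to 54.2 in TG and 51.9 to 53.2 in WT, with Acp5 at 0.69 (SE 0.21) and Ocstamp at -0.20. Ctsk and Acp5 had every TG array above every WT array, and Ocstamp had the reverse order. Macrophage markers, 9 of 10 above 0, summed to 65.1 to 68.5 in TG and 63.6 to 66.1 in WT, and were highest on TG arrays 1 and 2, with Itgam at 0.57, Ccr2 at 0.56, Lyve1 at 0.33 and Tyrobp at 0.26. Itgam and Tyrobp had every TG array above every WT array, and no macrophage marker had the reverse order. The part of these cells in the collagen values was not tested.

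Of the fibroblast markers 6 of 10 lay above 0, with a summed level of 76.8 to 77.8 in TG and 76.6 to 77.9 in WT, and the ranges of the groups overlapped. Their leading genes were Pi16 at -0.28, Pdgfra at 0.16, Gsn at 0.16 and Fbln1 at -0.16. Tendon markers had 3 of 8 above 0 and summed to 60.8 to 61.2 in TG and 60.4 to 62.5 in WT, with the tendon transcription factor genes Mkx at -0.35 (SE 0.07; limma, adjusted p = 0.546) and Scx at -0.28, Comp at -0.23 and Chodl at 0.22. Endothelial (4 of 10 above 0, median -0.017), smooth muscle (4 of 8, median -0.018) and Schwann cell markers (1 of 5, median -0.064) are given as counts. Of the skeletal muscle markers 2 of 10 lay above 0 with a median of -0.011. The leading genes were Myh2 at -0.30, with every TG array below every WT array, and Myh1 at 0.06, with the reverse order. Myh4 at 0.03 and Pvalb at -0.02 came next, and none passed over all genes. Acta1 and Ckm, the skeletal actin and muscle creatine kinase genes, were named for their level and not for their p. Their means were 14.59 and 14.51 in TG and 14.59 and 14.52 in WT, so both genes were high on the arrays of both groups.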

How the data were processed

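Expression was measured on Affymetrix MoGene arrays, per the series' design text, from total RNA extracted with Trizol and RNeasy columns, per the labels' protocols. The authors deposited 1 table of log2 values for 35557 probe sets; how they were summarized and normalized is not stated in these sources, and signal over background was not measured. All 6 columns were used (0 left out). Array medians over the genes tested lay between 6.39 and 6.48, every TG median below every WT median. Correlations between arrays were 0.9947 to 0.9959 within groups and 0.9943 to 0.9960 between them.

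Genes came from probe sets with 1 symbol (21789; 1621 had several, 12147 none). Groups were fitted with limma 3.58.1 in R 4.3.3, two-sided, with Benjamini-Hochberg adjustment over 19938 genes, and intervals are at 95%. With 3 arrays per group the number of arrays limits the precision. Collagen classes (9), pathway lists (7) and marker lists (11) are described by counts and medians with no test; of their 186 pathway and marker genes 174 were measured, and of the listed collagens 1, Col21a1, had no row with its own symbol. Members and lists were chosen with earlier results of these data known. Named genes follow a written rule: all members, with every array for those with an unadjusted p under 0.05, those with groups apart and the principal chains, and up to 4 genes of smallest p in each other list. Mmp13, Sp7, Alpl, Acta1 and Ckm were named outside that rule. Checks on simulated data used 20 sets of 19938 genes, where 200 genes were changed and the 6 genes of the fibrillar class were shifted by 0.3 besides. Of the 200, 2.70% of differences of 0.25, 60.6% of 0.5, 98.7% of 1 and 99.9% of 2 (log2) were recovered, and 5.81% of calls were false. Noise was drawn independently for each gene, so array effects shared by genes were not simulated and these rates need not hold for the real arrays. Pair correlations used exact permutation over 720 orders with scipy 1.17.1, and figures used matplotlib 3.10.9. Alternatives were an intensity trend, robust moderation, quantile normalization, a common array median, genes above the median level, all probe sets of a gene averaged, and each array left out. The pairs, the promoters and the alternatives for counts of separated genes and of unadjusted p were added after seeing the data.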

Additional observations from a re-analysis of the deposited data

How the results depend on the processing

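The count of collagen genes called stayed at 0 under all 12 alternatives, with a smallest adjusted p of 0.464 (limma), while that of all genes was 7 with an intensity trend, 2 among genes above the median level, 0 with robust moderation, 0 with a common array median and 0 without each array. The median over all members went from -0.037 to -0.00089 without 1 array, and was 0.021 with a common array median. Collagen genes with every TG array below every WT array numbered 5 with a common array median (4.38% of all genes). Without 1 array they numbered 9 to 13 (11.4% to 15.7% of all genes), where fewer arrays make such an order easier. The reverse order rose too, from 1 gene with all arrays to 11 without TG array 3, the setting with 13 below. It held for 1 to 3 genes without any other array, and its share over all genes was not counted at these settings. Collagen genes with an unadjusted p under 0.05 numbered 1 to 7 (1 without WT array 3, 2 without TG array 1 or WT array 2, 7 without TG array 3), against 5.22% to 7.85% of all genes without 1 array. The basement membrane difference was 0.086 among genes above the median level, where 3 of its 6 genes were left. Without 1 array the class differences ran from 0.046 to 0.22 for fibrillar, from -0.029 to 0.035 for basement membrane and from -0.075 to -0.020 for cartilage or bone genes.

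Of 518 member values under alternatives, 35 had the opposite sign, none of them past the threshold in either setting. Many of the 518 could not change sign. An intensity trend, robust moderation and the limit to genes above the median level leave a member's difference as it was. Averaging probe sets could change only the 2 genes with several probe sets. With quantile normalization the members of opposite sign were Col5a1 at -0.0055 and Col6a4 at 0.0034. With a common array median they were Col6a4 at 0.018, Col7a1 at 0.0054, Col13a1 at 0.012 and Col28a1 at 0.024. The others arose without 1 array. There Col1a1 ran from -0.082 to 0.26, Col1a2 from -0.0032 to 0.20, Col4a2 from -0.0087 to 0.14, Col4a4 from -0.0089 to 0.12, Col5a1 from -0.024 to 0.060 and Col6a2 from -0.016 to 0.15. Col6a4 ran from -0.071 to 0.016, Col7a1 from -0.070 to 0.020, Col8a1 from -0.0037 to 0.20, Col9a1 from -0.011 to 0.059, Col10a1 from -0.051 to 0.20 and Col12a1 from -0.099 to 0.64. Col13a1 ran from -0.065 to 0.020, Col15a1 from -0.090 to 0.16, Col18a1 from -0.092 to 0.0010, Col20a1 from -0.0048 to 0.025 and Col28a1 from -0.056 to 0.0073. The cause was not tested. No raw probe intensities were used, so background correction was not varied, and 1 label date left no batch to block. No paired analysis was possible because the labels carry no replicate numbers shared by the groups.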
